A study of Mus musculus with 38 samples.

Results

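Med12 is a subunit of the kinase module of Mediator, the complex that carries signals from transcription factors bound at enhancers to RNA polymerase II. The regions described here are Med12 peaks that were on the list of early Notch-stimulated (Phase 1) cells treated with guide RNAs against Cbfb, were absent from both Phase 1 Med12 lists of cells with Cbfb, and lay at sites with a Med12 peak in the unstimulated lymphoid progenitors (LPs). They are called regained peaks by this pattern alone, since the lists cannot tell Med12 that returned from Med12 that was never lost. Regained peaks were chosen by these 4 lists with a minimum overlap of 1 bp. The rule was met by 1126 of the 18099 sgCbfb Med12 peaks (6.22%), of 359759 peaks in the 17 lists of the series.

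All cells came from the Cas9-LP line, made from fetal liver progenitors of Ebf1-deficient mice with Cas9 knocked into Rosa26, so every group lacked Ebf1 and carried Cas9. LP cells were kept on OP9 stroma, and Phase 1 cells were moved to OP9-DLL4 stroma, which presents a Notch ligand. The LP Med12 and Phase 1 Med12 groups are labelled with no guide, the sgCont group received control guides, and the sgCbfb group received a pool of 3 guides against Cbfb from a retroviral vector marked with hNGFR, so it was a mixture of edited cells rather than a clone. Each of these 4 groups had 2 chromatin immunoprecipitation (ChIP-seq) replicates that the authors merged into 1 list of reproducible peaks, and the study describes ChIP-seq of its gene-deleted cells as made from limited cell numbers and noisy. Peak lists cannot show the deletion of Cbfb itself. They carry no read depth and no value per replicate, so no difference below was set against the spread between cultures. Peaks were the units counted, and peaks are not replicates of a culture, so intervals and tests cover counting error only. The LP Med12 list held 30020 peaks of 355 bp, the Phase 1 Med12 list 39132 of 327 bp, the sgCont list 19053 of 255 bp and the sgCbfb list 18099 of 311 bp.

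Cbfb is the partner that RUNX proteins, RUNX1 among them, need for stable binding to DNA. CTCF is a zinc-finger protein that binds a long motif, marks the anchors of chromatin loops and often stays in place between cell states. p300 is an acetyltransferase that, like Mediator, is recruited by transcription factors to active enhancers and promoters.

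Sequences of 7 regained sites are given as examples, taken from the 2 highest-scored sites outside promoters in each of 4 kinds. Chosen by kind, they do not show how frequent each kind was. Each is a 120 bp stretch of the mm10 plus strand, 5′ to 3′, with the searched string in capitals. The first pair held the CTCF consensus string under an LP CTCF peak, in an intron of Rcc2 (chr4:140713976-140714095) and in an intron of 4930579G18Rik (chr14:54651232-54651351). In the Rcc2 site the string reads on the minus strand.
Rcc2 site: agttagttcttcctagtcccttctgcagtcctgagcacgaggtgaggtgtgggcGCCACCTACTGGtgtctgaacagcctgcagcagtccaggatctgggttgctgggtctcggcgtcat
4930579G18Rik site: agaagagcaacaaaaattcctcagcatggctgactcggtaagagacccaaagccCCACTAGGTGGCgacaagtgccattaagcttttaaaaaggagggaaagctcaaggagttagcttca
The next site held a RUNX string, TGTGGTT or TGCGGTT, under an LP RUNX1 peak with no LP CTCF peak, in an intron of Notch2 (chr3:98025622-98025741).
Notch2 site: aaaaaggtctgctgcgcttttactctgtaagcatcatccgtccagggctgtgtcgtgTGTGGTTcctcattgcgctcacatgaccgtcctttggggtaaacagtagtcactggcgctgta
The next pair held the PU.1 string GAGGAAGT and neither other string, in an intron of Antxr1 (chr6:87153111-87153230, string on the minus strand) and intergenic near Cnn3 (chr3:121369647-121369766). PU.1 is an ETS factor of progenitor and myeloid cells.
Antxr1 site: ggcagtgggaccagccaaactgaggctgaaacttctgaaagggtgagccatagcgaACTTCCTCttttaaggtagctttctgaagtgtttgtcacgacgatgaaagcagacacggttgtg
Cnn3 site: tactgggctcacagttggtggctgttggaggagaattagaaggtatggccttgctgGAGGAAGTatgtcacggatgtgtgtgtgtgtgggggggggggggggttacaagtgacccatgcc
At 822 regained peaks, counting 1 that was not searched, none of these strings was found in the 200 bp around the peak centre. The last 2 sites are of this kind, so they are printed without capitals. They were intergenic on chromosome Y near G530011O06Rik (chrY:90740284-90740403) and in an intron of Chd8 (chr14:52244492-52244611).
G530011O06Rik site: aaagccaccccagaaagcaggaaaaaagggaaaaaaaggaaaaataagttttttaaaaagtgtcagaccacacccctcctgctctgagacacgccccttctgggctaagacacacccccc
Chd8 site: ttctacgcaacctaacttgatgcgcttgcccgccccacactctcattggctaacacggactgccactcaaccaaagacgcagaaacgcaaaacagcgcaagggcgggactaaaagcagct

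The first question was how far the sgCbfb list differed from its control at LP sites. Of the sgCbfb Med12 peaks, 5184 had no peak in the sgCont list, and 3023 had none in the Phase 1 Med12 list either. LP Med12 peaks lay at 1126 of these 3023 (37.2%), and the other 1897 are called new peaks. With sgCont and sgCbfb exchanged, 148 of 19053 sgCont peaks met the same rule (0.777%), and they are called mirror peaks. The 2 counts are not a symmetric pair, because the Phase 1 Med12 list that excludes peaks in both comes from cells with Cbfb, as the sgCont list does. When the sgCont list alone excluded sgCbfb peaks, and the sgCbfb list alone sgCont peaks, 2882 regained and 4655 mirror peaks were counted, so the order of the counts turned. When the other Med12 lists were cut to the length of the sgCbfb list by score, 806 regained and 407 mirror peaks were left.

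Seen from the LP side, 5849 LP Med12 peaks had no peak in the Phase 1 Med12 list. Of these, 1603 (27.4%) overlapped an sgCbfb peak and 637 (10.9%) an sgCont peak. Both lists held 497 of them, the sgCbfb list alone 1106 and the sgCont list alone 140. The remaining 4106, with no peak in any of the 3 Phase 1 Med12 lists, are called not regained. Each regained peak overlapped exactly 1 LP Med12 peak, and 23 of those LP peaks also touched a Phase 1 or sgCont Med12 peak at another edge.

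Regained peaks were low in both lists that define them. Their sgCbfb scores had a median of 22.1 (quartiles 18.4 and 27.7, highest 130), against 36.4 over the whole sgCbfb list and 19.1 for new peaks. The LP Med12 peaks they overlapped had a median score of 26.7 (quartiles 20.9 and 36.5), against 48.8 over the LP list and 23.0 at not regained sites. By rank, their medians lay at the percentile 22.7 of the sgCbfb list and 23.9 of the LP list. Scores are the authors' peak scores and were compared only within a list. They were used by the rule through the minimum score of 15, so these values are a description.

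**Figure D1:**
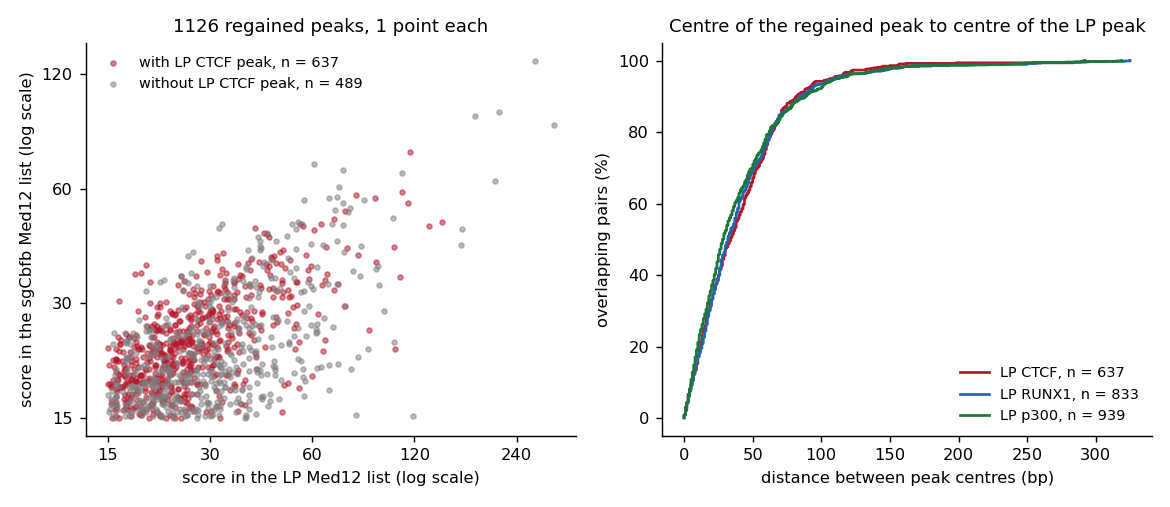
Left, score of each regained peak in the sgCbfb Med12 list against the score of the LP Med12 peak it overlapped, both on log scales, with 637 peaks that overlapped an LP CTCF peak in red and 489 that did not in gray; most points lie under a score of 30 on the vertical axis, where 902 peaks sat. Right, cumulative share of overlapping pairs by the distance in bp between the centre of the regained peak and that of the LP CTCF, LP RUNX1 or LP p300 peak, with median distances of 34.0, 32.0 and 28.0 bp.

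CTCF lay at more than 1 in 2 regained peaks in either stage. An LP CTCF peak overlapped 637 of 1126 (56.6%, 95% Wilson interval 53.7 to 59.4), where all sgCbfb Med12 peaks had 33.6%. A Phase 1 CTCF peak overlapped 625 (55.5%, interval 52.6 to 58.4), against 32.5% of all sgCbfb Med12 peaks. The 2 sets of sites were nearly the same: 619 regained peaks held CTCF in both stages, 18 in LP only and 6 in Phase 1 only. Thus 97.2% of the regained peaks with an LP CTCF peak also had one in Phase 1, where Med12 had no listed peak in cells with Cbfb. Near-equal stages were not particular to regained peaks. Over all sgCbfb Med12 peaks, 6089 had LP CTCF and 5887 Phase 1 CTCF, and the study calls its CTCF peaks relatively stable between the stages. The share with CTCF in both stages was not counted there. The share itself depended on the lists. LP CTCF lay at 221 of 806 regained peaks with lists of equal length and at 985 of 2882 with sgCont alone, both under 1 in 2.

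The CTCF peaks there were high on their own list. The LP CTCF peaks at regained sites had a median score of 225 (quartiles 186 and 266), against 65.7 (quartiles 30.8 and 140) over the 45388 LP CTCF peaks. In rank within the LP CTCF list the median was the percentile 92.0. At not regained LP Med12 sites the CTCF peaks had a median score of 167 and a median percentile of 81.4. In the Phase 1 CTCF list the medians were 242 at regained sites and 69.1 over the whole list. High CTCF scores were not particular to regained sites, since CTCF peaks at new peaks had medians of 208 in LP (quartiles 175 and 243) and 218 in Phase 1.

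RUNX1 occupancy differed between the stages at these sites. An LP RUNX1 peak overlapped 833 regained peaks (74.0%, interval 71.3 to 76.5), and a Phase 1 RUNX1 peak 213 (18.9%, interval 16.7 to 21.3). Over all sgCbfb Med12 peaks the shares were 83.6% and 78.7%. The lower Phase 1 share is close to the rule, which asked for Med12 in LP and none in Phase 1 cells with Cbfb. RUNX1 went with Med12, at 90.3% of all LP Med12 peaks (LP RUNX1) and 94.4% of all sgCont Med12 peaks (Phase 1 RUNX1). Not regained LP Med12 peaks had 68.4% and 26.5%. RUNX1 peaks were listed in LP only at 637 regained peaks (56.6%), in both stages at 196 (17.4%), in Phase 1 only at 17 and in neither at 276 (24.5%). This split was not counted for the other classes. With lists of equal length, Phase 1 RUNX1 lay at 551 of 806 regained peaks, and with sgCont alone at 1652 of 2882. The RUNX1 peaks at regained sites had low scores on their own lists, with a median of 26.9 in LP, where the whole list had 47.0, and of 24.8 in Phase 1, where the whole list had 44.0. The unguided Phase 1 RUNX1 list was made from cells with Cbfb, and the series holds no RUNX1 sample of sgCbfb cells.

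p300 was on the LP list at most regained peaks and on the Phase 1 list at fewer. LP p300 peaks lay at 939 regained peaks (83.4%, interval 81.1 to 85.5), and Phase 1 p300 peaks at 428 (38.0%, interval 35.2 to 40.9). Over all sgCbfb Med12 peaks the shares were 85.6% and 80.9%. This fall is likewise close to the rule, and not regained LP Med12 peaks had 82.0% and 26.2%. With lists of equal length, Phase 1 p300 lay at 585 of 806 regained peaks, and with sgCont alone at 1967 of 2882. p300 was listed in LP only at 527 regained peaks (46.8%), in both stages at 412 (36.6%), in Phase 1 only at 16 and in neither at 171 (15.2%). This split, too, was not counted for the other classes.

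The 3 factors overlapped in LP cells in a few main combinations. Combinations were counted at regained peaks only, with no share over all sgCbfb Med12 peaks, so none is shown to be particular to the class. CTCF, RUNX1 and p300 were together at 426 regained peaks (37.8%, interval 35.0 to 40.7), and RUNX1 with p300 but not CTCF at 324 (28.8%, interval 26.2 to 31.5). In Phase 1 the most frequent states were CTCF alone at 351 peaks (31.2%, interval 28.5 to 33.9) and none of the 3 factors at 281 (25.0%, interval 22.5 to 27.6). All 6 lists held a peak at 73 regained peaks, and none did at 39. An LP RUNX1 peak with an LP CTCF peak, itself absent from the Phase 1 RUNX1 list, overlapped 382 regained peaks (33.9%). RUNX1 was listed in LP only at 59.7% of the 637 regained peaks with LP CTCF (interval 55.8 to 63.4) and at 52.6% of the 489 without it (interval 48.1 to 56.9), a difference that was not tested.

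**Figure D2:**
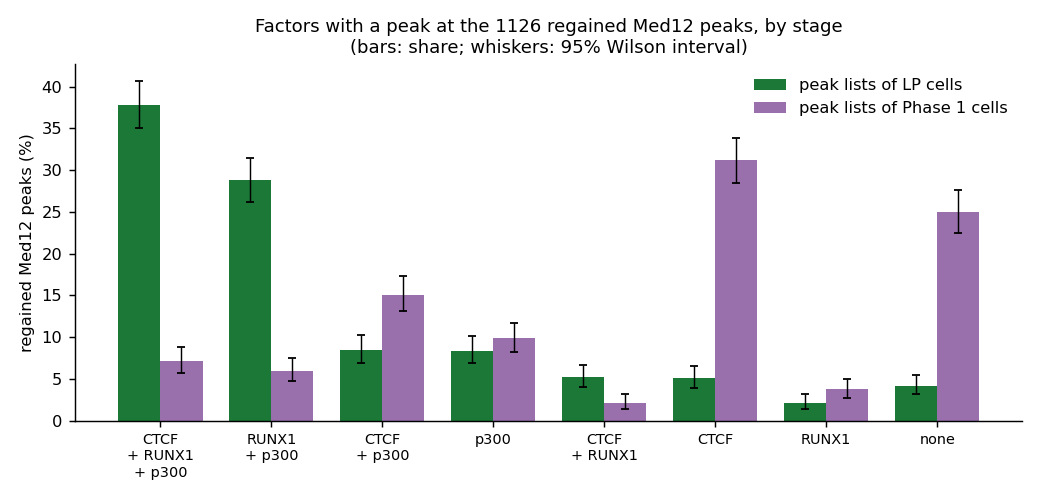
Share of the 1126 regained Med12 peaks (vertical axis, in percent) that overlapped each combination of CTCF, RUNX1 and p300 peaks, for the LP lists in green and the Phase 1 lists in purple, with 95% Wilson intervals as whiskers. The triple combination held 37.8% in LP and 7.10% in Phase 1, and CTCF alone 5.06% and 31.2%. Other classes of Med12 peaks were not counted in this way.

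To ask which LP Med12 sites were regained, the 1126 LP Med12 peaks with a regained peak were compared with the 4106 not regained LP Med12 peaks, so that peaks of 1 list and 1 width were on both sides. LP CTCF overlapped 56.7% of regained and 25.0% of not regained LP peaks (odds ratio 3.93, two-sided Fisher's exact test, adjusted p = 2.07e-85). Phase 1 CTCF overlapped 55.9% and 22.8% (odds ratio 4.29, adjusted p = 1.30e-94 by the same exact test). Both contrasts are in part close to the rule, since regained sites had to be on the sgCbfb list. That whole list held LP CTCF at 33.6%, against 23.4% of all sgCont and 23.6% of all LP Med12 peaks. New peaks, which had no LP Med12 peak, held LP CTCF at 66.8%. Benjamini-Hochberg adjustment was over the 27 tests of 3 comparisons and 9 features. Phase 1 p300 was also more frequent at regained sites, at 38.7% against 26.2% (odds ratio 1.78, exact test, adjusted p = 2.59e-15). LP RUNX1 was at 74.9% and 68.4% (odds ratio 1.38, exact test, adjusted p = 3.03e-05), and Phase 1 RUNX1 at 20.2% and 26.5% (odds ratio 0.700, exact test, adjusted p = 1.72e-05). Neither RUNX1 call held with a minimum score of 30 or with lists of equal length. LP p300 did not pass the test, at 84.1% and 82.0% (odds ratio 1.16, exact test, adjusted p = 0.115), with intervals of 81.9 to 86.1 and 80.8 to 83.1.

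The CTCF difference was present at each level of the LP Med12 score. In 5 classes of LP Med12 score, the share of peaks that were regained ran from 26.5% to 44.1% with an LP CTCF peak and from 6.35% to 22.0% without one, and in each class the 2 intervals did not overlap. Matched on these classes, the LP RUNX1 odds ratio was 1.07 (Mantel-Haenszel estimate), so that call was lost, and the LP p300 odds ratio turned to 0.918. Of LP Med12 peaks with LP CTCF, 38.4% (639 of 1666) were regained, and of those without LP CTCF 13.7% (487 of 3566).

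**Figure D3:**
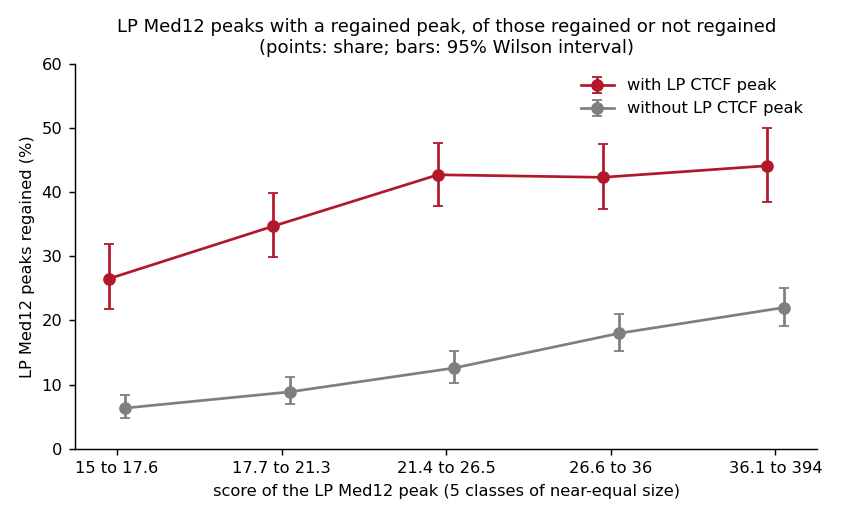
Share of LP Med12 peaks that were regained (vertical axis, in percent, of the 1126 regained and 4106 not regained together) in 5 classes of the LP Med12 score (horizontal axis), with an LP CTCF peak in red and without one in gray, and 95% Wilson intervals as bars. The red points lie at 26.5% to 44.1% and the gray points at 6.35% to 22.0%.

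Regained peaks were then set against the 1897 new sgCbfb peaks, which had no LP Med12 peak. LP RUNX1 lay at 74.0% of regained and 17.4% of new peaks (odds ratio 13.5, exact test, adjusted p = 1.54e-214), and LP p300 at 83.4% and 23.8% (odds ratio 16.1, exact test, adjusted p = 1.46e-234). This contrast is close to the rule, since 90.3% of all LP Med12 peaks held LP RUNX1 and 94.1% LP p300. The Phase 1 lists went the same way, with RUNX1 at 18.9% and 5.59% (odds ratio 3.94, exact test, adjusted p = 6.15e-29) and p300 at 38.0% and 19.0% (odds ratio 2.62, exact test, adjusted p = 3.13e-29). CTCF was the exception, with LP CTCF at 56.6% of regained and 66.8% of new peaks (odds ratio 0.646, exact test, adjusted p = 3.28e-08) and Phase 1 CTCF at 55.5% and 67.0% (odds ratio 0.614, exact test, adjusted p = 6.85e-10). With a minimum score of 30 these odds ratios were 1.07 and 0.958, and neither passed.

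Against the 148 mirror peaks, regained peaks held CTCF more often and Phase 1 RUNX1 less often. LP CTCF lay at 56.6% of regained and 21.6% of mirror peaks (interval 15.8 to 28.9, odds ratio 4.72, exact test, adjusted p = 1.14e-15). Phase 1 CTCF lay at 55.5% and 18.9% (odds ratio 5.35, exact test, adjusted p = 2.49e-17). These CTCF contrasts are in part close to the rule, since mirror peaks are on the sgCont list. That whole list held LP CTCF at 23.4% and Phase 1 CTCF at 22.9%, where the whole sgCbfb list held 33.6% and 32.5%. Phase 1 RUNX1 lay at 18.9% and 64.2% (interval 56.2 to 71.5, odds ratio 0.130, exact test, adjusted p = 4.24e-28). This contrast is close to the rule, since mirror peaks are Med12 peaks of Phase 1 cells with Cbfb and 94.4% of all sgCont Med12 peaks held Phase 1 RUNX1. LP RUNX1 lay at 74.0% and 85.8% (odds ratio 0.470, exact test, adjusted p = 0.00200), and this direction turned to 1.95 with a minimum score of 30. LP p300, at 83.4% and 81.1% (odds ratio 1.17, adjusted p = 0.503), and Phase 1 p300, at 38.0% and 42.6% (odds ratio 0.827, adjusted p = 0.305), did not pass the exact test. Mirror peaks were on the narrower sgCont list, and the part of peak width in these shares was not tested.

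**Figure D4:**
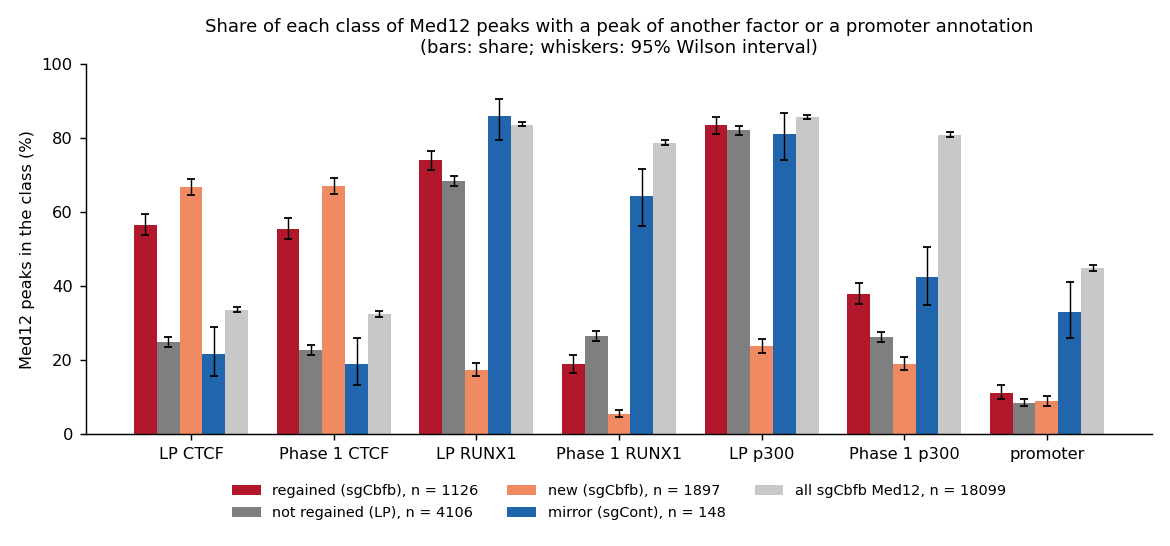
Share of Med12 peaks (vertical axis, in percent) that overlapped a CTCF, RUNX1 or p300 peak of either stage or were annotated as promoter, for regained, not regained, new and mirror peaks and for all sgCbfb Med12 peaks, with 95% Wilson intervals as whiskers. LP CTCF stood at 56.6% of regained peaks (56.7% of the LP Med12 peaks they overlapped) and 25.0% of not regained LP peaks, and LP RUNX1 at 74.0% of regained and 17.4% of new peaks.

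The strings at the peak centres showed the same split for CTCF and another one for RUNX. In the 200 bp around the centre, on either strand, the CTCF string was found at 158 of the 1125 regained peaks searched (14.0%, interval 12.1 to 16.2), at 4.41% of all sgCbfb Med12 peaks and in 0.222% of equally long windows taken 2 kb away on both sides. All 158 had an LP CTCF peak, as the Rcc2 site printed above does. A RUNX string was found at 57 (5.07%, interval 3.93 to 6.51), at 7.92% of all sgCbfb Med12 peaks and in 6.40% of the flanks. A CTCF and a RUNX string were found together at 11 regained peaks. The PU.1 string was at 104 (9.24%, interval 7.69 to 11.1), at 8.98% of all sgCbfb Med12 peaks and in 1.24% of the flanks. No string contains another, and a match is not a shown binding site.

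Among LP Med12 peaks, the RUNX string was less frequent at regained than at not regained sites, at 5.78% (interval 4.56 to 7.30) and 16.9% (interval 15.7 to 18.0; odds ratio 0.302, exact test, adjusted p = 1.14e-23). This contrast, and that with mirror peaks below, is close to the rule, since regained sites had to be on the sgCbfb list. That whole list held the RUNX string at 7.92%, against 17.5% of all sgCont and 18.7% of all LP Med12 peaks. The CTCF string was at 12.8% and 3.70% (odds ratio 3.82, exact test, adjusted p = 4.30e-26). This CTCF contrast, and that with mirror peaks below, is likewise in part close to the rule. Over the whole lists the CTCF string was at 4.41% of sgCbfb, 1.14% of sgCont and 1.74% of LP Med12 peaks. The RUNX difference was also seen where an LP RUNX1 peak was present and CTCF was not, with a string at 10 of 354 regained (2.82%, interval 1.54 to 5.12) and 479 of 2116 not regained LP peaks (22.6%, interval 20.9 to 24.5). Over all LP Med12 peaks of that kind the share was 21.8%. The PU.1 string in that group was at 15.3% of regained (interval 11.9 to 19.4) and 9.45% of not regained peaks (interval 8.28 to 10.8), a difference chosen after its values were seen and given without a test. Against mirror peaks, the CTCF string was at 14.0% and at 0 of 148, which allows a share of up to 2.03% by the limit of 3 counts (Wilson bound 2.53%, exact test, adjusted p = 2.00e-09), and the RUNX string at 5.07% and 16.2% (odds ratio 0.276, exact test, adjusted p = 7.09e-06), a call that was lost with a minimum score of 30 (odds ratio 0.547). Between regained and new peaks the RUNX string did not pass the test, at 5.07% and 4.96% (odds ratio 1.02, exact test, adjusted p = 0.931).

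**Figure D5:**
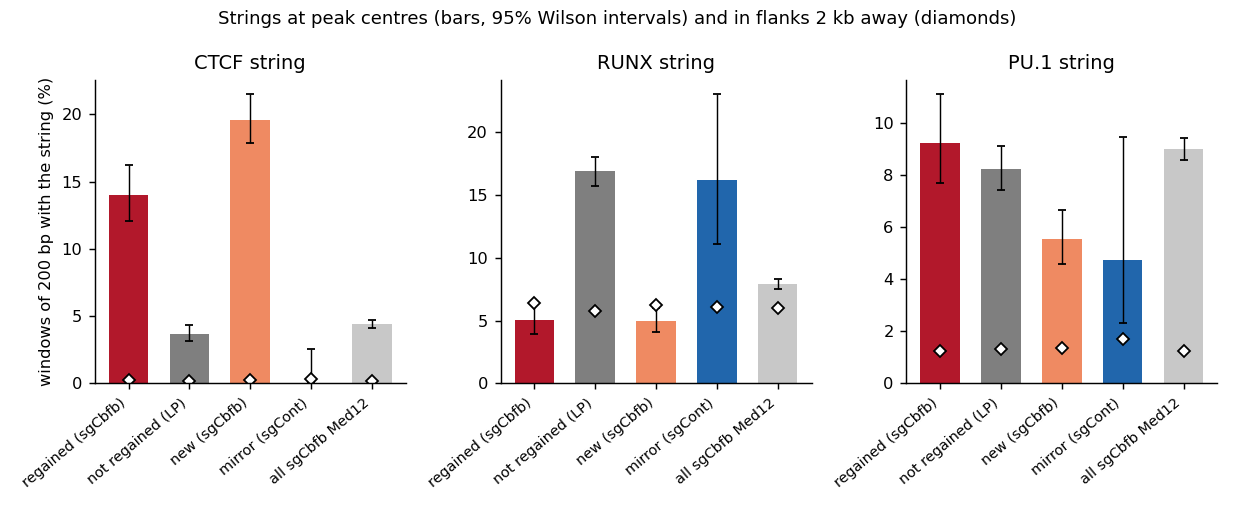
Share of 200 bp windows at peak centres (bars, vertical axis in percent, with 95% Wilson intervals) and of windows 2 kb away on both sides (diamonds) that held the CTCF, RUNX or PU.1 string, for regained, not regained, new and mirror peaks and all sgCbfb Med12 peaks. Not regained peaks are centred on the LP list and regained peaks on the sgCbfb list, where the CTCF string stood at 14.0% and the RUNX string at 5.07%, with 6.40% in the flanks; centred on the LP list, regained peaks had 12.8% and 5.78%, against 3.70% and 16.9% for not regained.

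Regained peaks were mainly distal. HOMER annotated 126 (11.2%, interval 9.48 to 13.2) as promoter, against 44.8% of all sgCbfb Med12 peaks, 477 (42.4%) as intron and 439 (39.0%) as intergenic. The nearest start was within 1 kb at 147, over 1 to 10 kb away at 346, over 10 to 100 kb at 591 and farther at 41. The promoter share was 33.1% for mirror peaks (odds ratio 0.255, exact test, adjusted p = 1.40e-10, but 1.59 with sgCont alone as control) and 8.91% for new peaks (odds ratio 1.29, exact test, adjusted p = 0.0501). Among LP Med12 peaks it was 10.8% at regained and 8.52% at not regained sites (odds ratio 1.30, exact test, adjusted p = 0.0230), a call that was lost with centres within 100 bp and when matched on score (odds ratios 1.20 and 1.15). Against new peaks the promoter share passed with no neighbour within 1 kb, with lists of equal length and with sgCont alone (odds ratios 1.47, 1.78 and 1.52). Within the regained peaks, CTCF was listed in both stages at 34.1% of the 126 promoter peaks (interval 26.4 to 42.8) and at 57.6% of the 1000 others (interval 54.5 to 60.6), which was not tested.

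In the detailed annotation of repeats, read after the other results, 50 regained peaks (4.44%, interval 3.38 to 5.81) lay in SINE B2 elements, short repeats of the mouse genome that often carry a CTCF site. The share was 1.17% of all sgCbfb Med12 peaks and 2.61% of not regained LP peaks (interval 2.16 to 3.14). New peaks had 5.22% (interval 4.31 to 6.31), so the share was not particular to regained peaks. CTCF was listed in both stages at 47 of these 50. Long terminal repeats held 3.02% of regained peaks (interval 2.17 to 4.19), near the 3.23% of all sgCbfb Med12 peaks. Among LP Med12 peaks they held 3.20% of regained (interval 2.32 to 4.39) and 8.40% of not regained peaks (interval 7.59 to 9.29).

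The peaks were spread over the genome. The 1126 peaks had 1058 different nearest genes, of which 997 had 1 regained peak, 59 had 2 and 2 had 3 or more. Neighbouring regained peaks lay a median of 547 kb apart, and 23 neighbouring pairs were within 10 kb. Chromosome 11 held 136 and chromosome 7 held 101, which was 5.44% and 5.13% of the LP Med12 peak counts there. Over the whole LP Med12 list, 1126 of 30020 peaks had a regained peak. The other numbered chromosomes ran from 2.40% to 4.17%, and chromosome X had 1.85%, differences that were not tested. Zmynd8, a reader of acetylated histones, was nearest to 4 regained peaks, all on chromosome 2, and in all to 7 sgCbfb and 12 LP Med12 peaks. Of these, 2 were intergenic 79.1 and 75.6 kb from its start, with LP CTCF scores of 300.6 and 254.0. The others were in introns 12 and 2, with LP CTCF scores of 232.4 and 25.9. All 4 held CTCF in both stages and RUNX1 in LP and not in Phase 1. Ldhal6b was nearest to 3, of 9 sgCbfb and 18 LP Med12 peaks, of which 2 lay in introns 5 and 9 of Arid1b, a subunit of the SWI/SNF remodeler, and 2 held CTCF in both stages.

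Promoters made up 28.1% of the 224 regained peaks with a score of 30 or more and 6.98% of the 902 below, while LP CTCF was at 54.0% and 57.2%. Both promoter shares were under the 44.8% of all sgCbfb Med12 peaks. Of the 10 regained peaks with the highest sgCbfb score, 7 were annotated as promoters, and 1 held CTCF. The same count for the 10 highest peaks of the whole sgCbfb list was not taken. The highest, with an sgCbfb score of 130.2 and an LP Med12 score of 272.0, lay at the promoter of Gm10052 near Hnrnpa1, an RNA-binding splicing regulator (chr15:103240141-103240451). The peak at Pan2, a subunit of a poly(A) deadenylase, had scores of 88.2 and 309.1 (chr10:128303130-128303440). Neither overlapped CTCF, RUNX1 or p300 in either stage, and both had a Phase 1 or sgCont Med12 peak close by, with 176 and 104 bp between the peaks. Such neighbours within 1 kb were present at 158 regained peaks (14.0%), of which 27 were promoters.

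Other high peaks carried the factors. Ndufb10, a subunit of respiratory complex I, had a promoter peak with a score of 74.8 and all 6 factor peaks (chr17:24724313-24724623), its LP CTCF score being 336.5. Mrpl28, a mitochondrial ribosomal protein, had scores of 69.5 in sgCbfb and 60.9 in LP, and Fbxl18, an F-box protein, 66.1 and 110.0, both with RUNX1 and p300 in both stages and no CTCF. The Bag6 promoter peak, at a chaperone gene, had scores of 62.8 and 207.9 and lay 8 bp from a Phase 1 or sgCont peak. The peak in intron 1 of Chd8, a chromatin remodeler, had a score of 60.7, with RUNX1 and p300 in LP only. The chromosome Y peak printed above and 1 peak on the unplaced sequence Un_GL456370 had scores of 95.2 and 67.3 and an LP RUNX1 peak as their one factor.

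The LP Med12 score added 5 more peaks. Cmtm7 intron 1 (chr9:114775339-114775649) had an LP Med12 score of 165.2 and an LP p300 score of 342.2, with p300 in LP only and RUNX1 in both stages. The peak near Adora3, the adenosine A3 receptor gene, had an LP Med12 score of 164.2 and held RUNX1 and p300 in LP only. Rcc2 intron 7, whose CTCF string is printed above, had an LP Med12 score of 144.3, CTCF scores of 265.9 in LP and 241.9 in Phase 1, and RUNX1 and p300 in LP only. The Cxxc5 promoter had an LP Med12 score of 132.5 and CTCF in both stages, and Arsg intron 5 had 118.8 with RUNX1 and p300 in both stages.

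The gene lists were hit by few regained peaks. Of the 20 stem and progenitor transcription factors, 5 were nearest to 6 regained peaks (0.533%, against 0.221% of all sgCbfb and 0.237% of all LP Med12 peaks). Etv6, an ETS repressor needed by blood stem cells, had a promoter peak with an sgCbfb score of 42.3 and RUNX1 in both stages, and a second peak 74.8 kb before its start with CTCF in both stages and RUNX1 in LP only. Fli1, an ETS factor of progenitors, had a peak of score 16.8 with CTCF in both stages and RUNX1 in LP only. Lmo2, a bridging factor of progenitor complexes, had a peak of score 25.8 with none of the 6 factor peaks. Myeloid genes had 1 regained peak (0.0888%, against 0.160% of all sgCbfb and 0.180% of all LP Med12 peaks), near Irf8, with a score of 20.2 and RUNX1 and p300 in both stages. B-lineage genes had 2 (0.178%, against 0.0829% and 0.133%), near Blnk and Bach2, with scores of 20.2 and 18.5 and p300 in both stages. Of the 25 T-signature genes, 1 was nearest to a regained peak (0.0888%, against 0.133% of all sgCbfb and 0.290% of all LP Med12 peaks). It was Il2ra, which encodes CD25, with a peak in intron 1 (chr2:11664040-11664350) of score 22.0 and all 6 factor peaks, 912 bp from a Phase 1 or sgCont Med12 peak. The growth factor and cytokine receptors had 1 (0.0888%, against 0.193% of all sgCbfb and 0.217% of all LP Med12 peaks), near Ccr7, with no factor peak. Runx2 and Smc3, of the RUNX, CTCF, Mediator and p300 genes, had 1 each (together 0.178%, against 0.243% and 0.300%), both with CTCF in both stages and LP CTCF scores of 145.3 and 237.3. These counts were not tested.

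At the edge of the rule, the regained peaks nearest to an excluding peak were near Tbc1d1, Smarcb1 and Leng9, separated from a Phase 1 or sgCont peak by 1, 5 and 6 bp, with sgCbfb scores of 21.6, 45.0 and 34.9. The LP-overlapping peaks left out by the smallest overlap were near Sec22c, Atxn7l2 and Eif3b, which shared 5, 6 and 6 bp with such a peak and had sgCbfb scores of 42.1, 57.1 and 47.6. Guide-treated RUNX1 lists, short at 874 to 2094 peaks, met 1 regained peak, in the Phase 1 sgCont list, where each of these lists met 3.93% to 6.80% of all sgCbfb Med12 peaks. The Notch1-IC list of Phase 1 met 1 as well (0.0888%, against 0.448% of all sgCbfb Med12 peaks).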

How the data were processed

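The 38 samples formed 19 groups of 2 replicates, 17 of them with a deposited peak list. Per the labels and the study's methods, the authors aligned reads with Bowtie 1.1.1 to mm10, called peaks with HOMER and kept peaks reproducible between replicates by irreproducible discovery rate. The deposited values used here were peak positions, the authors' peak score (no unit, minimum 15), HOMER's annotation and the signed distance to the nearest start. Read depth was not used here.

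Lists were read in Python 3.11.15 by means of pandas 2.3.3 and numpy 2.4.6, with scipy 1.17.1 for the tests. Overlap meant at least 1 shared bp. Shares carry 95% Wilson intervals. Shares were compared by two-sided Fisher's exact tests with sample odds ratios and Benjamini-Hochberg adjustment, checked on simulated data. The GRCm38.p6 genome from RefSeq was searched. No peak ran past a chromosome end, the CTCF string was at 16.6% of LP CTCF peaks and 0.183% of their flanks, and 122 of 359759 peaks lay off the 21 named chromosomes and were not searched. RefSeq accessions of the nearest start gave symbols for 99.8% of sgCbfb peaks.

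Regained peaks, classes and gene lists were chosen with earlier results of these data known. Named peaks were the 10 highest by sgCbfb score, the 10 highest by LP Med12 score, those of genes with 3 or more regained peaks, up to 4 for each gene list, and 3 on each side of the overlap limit. A few peaks that the rule names are not reported here. Alternatives were another overlap rule, a minimum score of 30, no promoters, no excluding peak within 1 kb, lists of equal length, sgCont alone as control, score matching and other string searches. Matching on LP CTCF and named chromosomes alone were chosen after seeing the data.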

Additional observations from a re-analysis of the deposited data

Results flagged for a closer look

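LP Notch1-IC peaks, a list that entered none of the comparisons, overlapped 6 of the 1126 regained peaks (0.533%, 95% Wilson interval 0.244 to 1.16), above the 0.266% (3 counts) that a count of 0 would allow, although the interval reaches below that limit. The share was 4.72% of all sgCbfb Med12 peaks and 0.390% of not regained LP Med12 peaks. These 6 peaks, near Cmtm7, Adora3, Morrbid, Tcf4, Psd3 and Zfp873, had sgCbfb scores from 19.4 to 47.1. All 6 held LP RUNX1 and LP p300 peaks, and none held CTCF in either stage. The cause was not tested.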

How the results depend on the processing

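Of 250 values recomputed under alternatives, 200 kept their direction and their side of the threshold, or for a count stayed within 1.5 times. The CTCF odds ratios against not regained peaks ran from 1.78 to 4.53 for LP and from 2.01 to 4.93 for Phase 1, and those against mirror peaks from 1.67 to 5.85 and from 1.64 to 7.34. All of these odds ratios held, but the share of regained peaks with LP CTCF did not, and was lowest with lists of equal length (221 of 806). The LP RUNX1 and LP p300 odds ratios against new peaks were at least 10.0 and 11.0 throughout, and the RUNX string against not regained peaks ran from 0.204 to 0.345.

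The count of 1126 was 185 with a minimum score of 30 and 2882 with sgCont alone as control. Against not regained peaks, LP p300 was 1.55 with centres within 100 bp, 1.23 with no Phase 1 or sgCont peak within 1 kb, 1.16 with sgCont alone and 1.24 matched on LP CTCF, all then past the threshold, and turned to 0.553 with a minimum score of 30, 0.750 with lists of equal length and 0.918 matched on score. LP RUNX1 fell short at 1.62, 1.38 and 1.07 under those last 3 settings. Phase 1 RUNX1 fell short at 0.998 with centres within 100 bp, 0.837 with a minimum score of 30 and 0.849 with lists of equal length. Against new peaks with a minimum score of 30, LP CTCF turned to 1.07, Phase 1 CTCF was 0.958 and the RUNX string turned to 0.938, and that string was 0.927 in 100 bp windows.

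Against mirror peaks, LP RUNX1 was 1.00 with centres within 100 bp, 1.95 with a minimum score of 30 and 0.839 with lists of equal length. LP p300 was 1.41 with centres within 100 bp and turned to 0.542 with no neighbour within 1 kb and 0.179 with sgCont alone. Phase 1 p300 was 0.634 with centres within 100 bp, 1.33 with a minimum score of 30, 0.598 with no neighbour within 1 kb, 0.598 with equal lists and 0.0925 with sgCont alone. The promoter odds ratio turned to 1.59 with sgCont alone. In that setting the classes take in other peaks by construction, and 2882 regained stood against 4655 mirror peaks. The cause of the other changes was not tested.

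No paired analysis was possible because each list merged its 2 replicates, and leaving out a replicate was impossible for the same reason. The CTCF string against mirror peaks had no finite odds ratio and was not recomputed. The lists carry no read depth, so a site without a listed peak was not detected rather than shown to be unbound.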
